A study of Mus musculus with 12 samples.

Results

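The transcripts described here encode 10 proteins of the PIWI-interacting RNA (piRNA) pathway and of the chromatoid body, measured in purified mouse spermatids. The members are Piwil1, Piwil2, Tdrd1, Tdrd5, Tdrd6, Tdrd7, Ddx4, Mael, Gtsf1 and Asz1. They were found by gene symbol, as every contig (an annotated transcript used as an alignment target) that the deposited tables pair with one of these symbols. This gave 24 contigs of 12114 counted, of which 18 contigs from 9 genes had enough reads to be tested. The 4 Tdrd1 contigs, the Tdrd5 contig ENSMUST00000167528 and the Gtsf1 contig ENSMUST00000147389 did not reach the read minimum, so Tdrd1 was tested only as the sum of its contigs.

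Round spermatids (RS) and elongated spermatids (ES) were sorted from the testes of adult male mice by DNA content, dye fluorescence and light scatter. The males were either Tent5c wt/wt or Tent5c dcat/dcat, homozygous for a constitutive targeted allele whose product, the cytoplasmic poly(A) polymerase TENT5C, is catalytically dead in every cell that makes it. Poly(A) RNA was sequenced directly on nanopores in 3 libraries per group, 12 in all, and each library held the pooled RNA of 3 mice. The libraries held 337287 to 1359427 counted reads, so the replicate spread is that between pools and hides the spread between animals. The Tent5c transcript ENSMUST00000061455 was detected in both genotypes, with a log2 difference of 0.15 ± 0.18 (SE) for dcat/dcat against wt/wt in RS, and since the allele keeps the transcript this does not check the labels.

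As background, piRNAs are small RNAs that guide PIWI proteins to transposon and other transcripts in the male germ line. Long precursors are transcribed from dedicated loci, cut and trimmed on the outer surface of mitochondria, loaded onto PIWI proteins and assembled with Tudor-domain scaffolds. In spermatids the PIWI proteins, the Tudor proteins and the RNA helicase DDX4 gather in the chromatoid body, a cytoplasmic RNA granule beside the nucleus that is prominent in round spermatids and shrinks and moves as the cell elongates.

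Several members are counted on contigs that differ by an inner exon or at their ends. Some of these stretches are shown because the results below turn on which contig carried the reads. The Ddx4 contigs ENSMUST00000099166 and ENSMUST00000075748 differ by a coding exon of 78 bases, 26 codons, at chr13:112641150-112641227 on the minus strand of GRCm38, which the second contig skips. Their annotated first exons also differ, with 200 bases in ENSMUST00000099166 and 26 in ENSMUST00000075748, so their reads are not separated by the skipped exon alone. The Mael contigs ENSMUST00000038782 and ENSMUST00000194057 differ by a coding exon of 42 bases, 14 codons, at chr1:166234165-166234206 on the minus strand, which the second contig also skips, and the last exon of ENSMUST00000194057 is 184 bases longer. In these lines capitals mark the exon, and the lower-case letters are the 20 bases of the neighbouring exons on each side, read 5′ to 3′ along the transcript.
Ddx4 ENSMUST00000099166: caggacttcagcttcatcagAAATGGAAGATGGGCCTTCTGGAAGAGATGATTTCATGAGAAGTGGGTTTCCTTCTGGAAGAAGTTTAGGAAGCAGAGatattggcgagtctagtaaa
Ddx4 ENSMUST00000075748: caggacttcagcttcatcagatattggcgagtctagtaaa
Mael ENSMUST00000038782: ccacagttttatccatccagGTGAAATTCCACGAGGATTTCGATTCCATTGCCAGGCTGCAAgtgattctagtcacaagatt
Mael ENSMUST00000194057: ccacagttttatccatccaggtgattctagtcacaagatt

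The 6 tested Gtsf1 contigs, on the minus strand of chromosome 15, share an exon and differ in what is spliced or read in front of it. They also differ at the 3′ end, with annotated last exons from 45 bases in ENSMUST00000141364 to 154 in ENSMUST00000023129. ENSMUST00000023129 joins it to a first exon at chr15:103430356-103430470, ENSMUST00000146736 to one of 50 bases at chr15:103429513-103429562, and ENSMUST00000123724 to one of 96 bases at chr15:103428511-103428606. The annotation counts the first exon of ENSMUST00000146736 as coding, and gives it a coding sequence of 580 bases against 501 for ENSMUST00000023129. As 580 bases are not a whole number of codons, that annotated coding sequence is incomplete. ENSMUST00000123724 has a coding sequence of 558 bases. Capitals mark the last 20 bases before the shared exon and lower case its first 10 bases, and the contigs ENSMUST00000153930 and ENSMUST00000141364 have the same 20 bases.
Gtsf1 ENSMUST00000023129: GGGAGAGCTTCTGGACTGAGcacttgaaca
Gtsf1 ENSMUST00000146736: CTTACCTAGAGACAACAGCTcacttgaaca
Gtsf1 ENSMUST00000123724: AAGAAGAAACTGGAGAGAAGcacttgaaca
Gtsf1 ENSMUST00000136480: AACCATGCTTTTTCCTCTAGcacttgaaca
Gtsf1 ENSMUST00000153930: TTTTCTGCCTTGTTTTCTAGcacttgaaca

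Reads of the 10 genes made up 0.377% to 0.416% of all counted reads in the RS libraries and 0.159% to 0.189% in the ES libraries, and the 2 stages did not overlap. A typical contig also fell on this unscaled measure. On total counts alone, the median log2 difference of ES against RS over all contigs tested was -0.96 in wt/wt and -0.85 in dcat/dcat. For the 18 member contigs it was -1.11 and -0.80. All levels below are CPM, counts scaled to a common library size after TMM scaling (trimmed mean of M-values), a relative measure, and differences are on the log2 scale. In sorted bulk RNA, fewer cells holding a transcript and less of it per cell cannot be told apart.

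Between the stages, transcripts of the RNA helicase gene Ddx4 and of the Tudor-domain genes Tdrd6 and Tdrd7 were lower in ES than in RS in both genotypes. Their contigs that passed the test were 1.69-fold to 2.48-fold lower. The PIWI genes Piwil1 and Piwil2 did not pass the test in either genotype. The leading contigs of Mael and Gtsf1 fell by less. The single contig that passed as higher was a different Gtsf1 contig in each genotype. Both of these contigs had estimates above 0 in both genotypes, and their interaction did not pass. Without TMM, on total counts alone, the median of all contigs moved from -0.24 to -0.96 in wt/wt and from -0.18 to -0.85 in dcat/dcat, so that every difference between stages is relative to the scaling. In wt/wt, 8 of the 18 contigs passed the threshold (edgeR quasi-likelihood test, Benjamini-Hochberg q at or under 0.05 over 11831 contigs), 1 higher and 7 lower in ES. Over all contigs tested, 40.3% passed in wt/wt, 23.8% higher and 16.5% lower. In dcat/dcat also 8 of 18 passed, 1 higher and 7 lower, against 41.0% of all contigs, 24.0% higher and 16.9% lower. The median log2 difference of the 18 contigs was -0.40 in wt/wt and -0.13 in dcat/dcat, beside -0.24 and -0.18 for all contigs tested. The libraries of RS and ES did not overlap for 10 contigs in wt/wt, 9 lower and 1 higher in ES, against 53.3% of all contigs, 27.3% lower and 25.9% higher. In dcat/dcat they did not overlap for 8, 7 lower and 1 higher, against 50.9%, 25.2% lower and 25.7% higher.

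**Figure D1:**
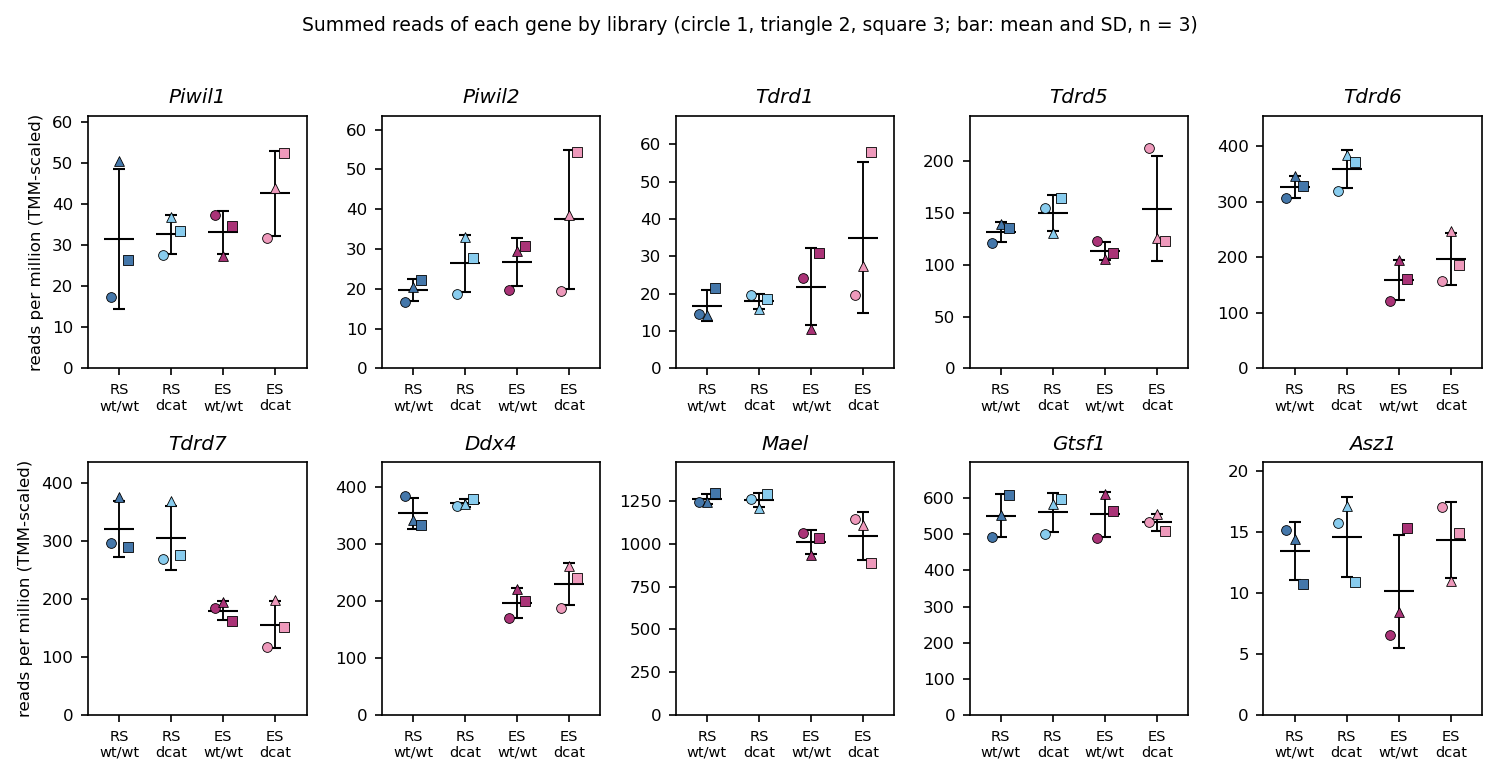
TMM-scaled CPM of each gene (linear axis from 0), all contigs summed, in the 12 libraries. Points are libraries (circle, triangle and square for numbers 1, 2 and 3), the wide bar is the mean and the error bar the SD of 3 libraries. All ES points of Tdrd6, Tdrd7 and Ddx4 lie below all RS points, while those of Gtsf1 and Piwil1 overlap.

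Tdrd6, a protein with multiple Tudor domains needed for chromatoid body structure, is counted on a single contig, ENSMUST00000168073. Its level in RS was 334, 343 and 324 CPM in the wt/wt libraries and 346, 382 and 365 in the dcat/dcat libraries. The ES values were 116, 175 and 148 for the wt/wt libraries and 148, 225 and 167 for the dcat/dcat ones. Every ES library was below every RS library. The log2 difference of ES against RS was -1.19 ± 0.19 (SE, q = 0.000242) in wt/wt, a level 2.27-fold lower, and -1.02 ± 0.19 (q = 0.000694) in dcat/dcat, both by edgeR.

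Tdrd7, another Tudor-domain protein of the chromatoid body, is counted on 2 long contigs that start at different first exons and share their last one, and on a short contig. ENSMUST00000107777, which starts at chr4:45965334-45965476, was at 149.5, 189 and 144 CPM in the RS wt/wt libraries and at 86.6, 70.4 and 45.9 in the ES wt/wt libraries. In dcat/dcat it was at 151, 198 and 151 in RS and at 44.1, 79.9 and 76.0 in ES. The stages did not overlap. Its log2 difference was -1.21 ± 0.26 (q = 0.00212) in wt/wt and -1.31 ± 0.26 (q = 0.00118) in dcat/dcat by edgeR. ENSMUST00000102929, which starts at chr4:45972233-45972436, was 1.82-fold lower in ES in wt/wt (q = 0.00663 by edgeR) and 2.001-fold lower in dcat/dcat (q = 0.00272). In wt/wt its q was 0.0505 without ES library 2. Its levels were 131 to 172 in RS wt/wt, 83.7 to 88.3 in ES wt/wt, 115 to 157 in RS dcat/dcat and 55.7 to 89.9 in ES dcat/dcat. ENSMUST00000155936 has 2 exons, no coding sequence and 81 reads in all, with log2 differences of 0.52 ± 0.56 and 0.02 ± 0.65 that did not pass.

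Ddx4, the mouse vasa homolog and a standard marker of germ cells, was lower in ES on both contigs. ENSMUST00000099166, which holds the exon of 78 bases, was at 299, 185 and 150.2 CPM in the RS wt/wt libraries and at 101, 97.0 and 81.2 in the ES wt/wt libraries. The dcat/dcat libraries were at 249, 172 and 152 in RS and at 102, 102 and 92.9 in ES. The ES libraries lay close together and the RS libraries were spread, with library 1 highest in both RS groups. The log2 differences were -1.17 ± 0.27 (q = 0.00319) and -0.95 ± 0.27 (q = 0.0110) by edgeR. For ENSMUST00000075748, without that exon, the wt/wt libraries gave 121, 155 and 179 CPM in RS against 61.3, 103 and 102 in ES. The dcat/dcat libraries gave 149, 195 and 221 in RS against 76.5, 135 and 123 in ES. The stages did not overlap, with differences of -0.78 ± 0.27 (q = 0.0322) in wt/wt and -0.75 ± 0.26 (q = 0.0334) in dcat/dcat by edgeR. The call of ENSMUST00000099166 ended in dcat/dcat without RS library 1 or ES library 3. That of ENSMUST00000075748 ended in wt/wt without RS library 2 or 3 or ES library 1, and in dcat/dcat without RS library 2 or 3 or ES library 1 or 3.

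Mael, a nucleocytoplasmic protein required for transposon silencing and piRNA production, had 11104 reads over both contigs. ENSMUST00000038782 was at 1287, 1029.5 and 1092 CPM in RS wt/wt and at 921, 613 and 731 in ES wt/wt. In dcat/dcat it was at 1288, 1011 and 1022 in RS and at 983, 659 and 522 in ES. The stages did not overlap in either genotype. The differences were -0.59 ± 0.22 (q = 0.0441) and -0.62 ± 0.22 (q = 0.0351) by edgeR. In wt/wt the call ended with DESeq2 (q = 0.0848), with DESeq2's size factors in edgeR (q = 0.0705) and without any 1 of the 6 libraries (q = 0.0537 to 0.304). In dcat/dcat it ended with DESeq2 (q = 0.0551) and with the 6 libraries fitted alone (q = 0.0508). It also ended there without RS library 1 or ES library 2 or 3 (q = 0.119 to 0.183). The contig that skips the exon, ENSMUST00000194057, had levels of 74.8 to 203 in RS wt/wt, 99.3 to 228 in ES wt/wt, 80.1 to 246 in RS dcat/dcat and 102 to 347 in ES dcat/dcat. Its differences of 0.24 ± 0.49 and 0.49 ± 0.48 did not pass. With the replicate number as a block shared by all groups, its difference in dcat/dcat was 0.46 and passed (q = 0.0264 by edgeR). Both contigs summed gave -0.32 ± 0.15 (q = 0.0827) in wt/wt and -0.26 ± 0.15 (q = 0.153) in dcat/dcat, neither past the threshold, while on total counts alone the sums were -1.18 and -1.09 and passed.

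Gtsf1, a small zinc finger protein that acts as a cofactor of PIWI proteins in target silencing, had overlapping summed levels in the stages after TMM scaling while its contigs moved in opposite directions. On total counts alone the sum was lower in ES in both genotypes (-0.85 and -0.89) and passed. Summed over 7 contigs it was at 491 to 609 CPM in RS wt/wt, 489 to 612 in ES wt/wt, 499 to 598 in RS dcat/dcat and 509 to 555 in ES dcat/dcat. The stages overlapped in both genotypes, and the log2 differences of 0.01 ± 0.16 and -0.07 ± 0.16 did not pass. The leading contig, ENSMUST00000023129, was at 430, 409.9 and 438 in RS wt/wt and at 321, 325 and 314 in ES wt/wt, and at 437, 419.6 and 407 in RS dcat/dcat and 329, 269.6 and 275 in ES dcat/dcat. The differences were -0.41 ± 0.14 (q = 0.0328) in wt/wt and -0.53 ± 0.14 (q = 0.00841) in dcat/dcat by edgeR, and in wt/wt q exceeded 0.05 when any 1 of the 6 libraries was left out (0.0549 to 0.189). That call in wt/wt also ended with DESeq2's size factors in edgeR (q = 0.0644) and with the 6 libraries fitted alone (q = 0.0856).

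ENSMUST00000146736, the Gtsf1 contig with the first exon of 50 bases, was the single member contig called higher in wt/wt, a call that ended on total counts alone. It was at 28.2, 45.3 and 44.9 CPM in RS wt/wt, from 34, 38 and 76 reads, and at 90.9, 93.2 and 88.3 in ES wt/wt, from 43, 49 and 25 reads. Every ES library was above every RS library, and the level was 2.30-fold higher (log2 SE 0.28, q = 0.00306 by edgeR). In dcat/dcat it was at 40.6, 45.9 and 70.9 in RS and at 78.8, 77.4 and 54.0 in ES, where the stages overlapped and the difference of 0.39 ± 0.28 did not pass. With the replicate number as a block within each stage, the dcat/dcat difference was 0.90 and passed (q = 0.0145 by edgeR). The difference between these 2 differences, the stage by genotype interaction, was -0.81 ± 0.39 (unadjusted p = 0.0556 and q = 0.99999 in the edgeR fit over all contigs), so the genotypes were not shown to differ. In dcat/dcat the contig called higher was ENSMUST00000123724, from 15.0, 23.6 and 27.2 in RS to 30.1, 69.9 and 47.3 in ES, a difference of 1.14 ± 0.42 (q = 0.0395 by edgeR). Its difference in wt/wt, 0.46 ± 0.44, did not pass. The dcat/dcat call did not hold when RS dcat/dcat library 1 or 2 or ES dcat/dcat library 2 or 3 was left out (q = 0.0745 to 0.170), on total counts alone (q = 0.335) or with the block within each stage (q = 0.268). The remaining 3 tested contigs, ENSMUST00000153930, ENSMUST00000136480 and ENSMUST00000141364, ranged from -1.17 to 0.48 in wt/wt and from -0.50 to 0.34 in dcat/dcat, and none passed. The lowest in both was ENSMUST00000141364, which passed in wt/wt with the replicate number as a block (-1.19, q = 0.0226 by edgeR) and without ES wt/wt library 3 (-1.59, q = 0.0354). On total counts alone it passed in wt/wt (-1.88, q = 0.00458) and in dcat/dcat (-1.16, q = 0.0382).

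**Figure D2:**
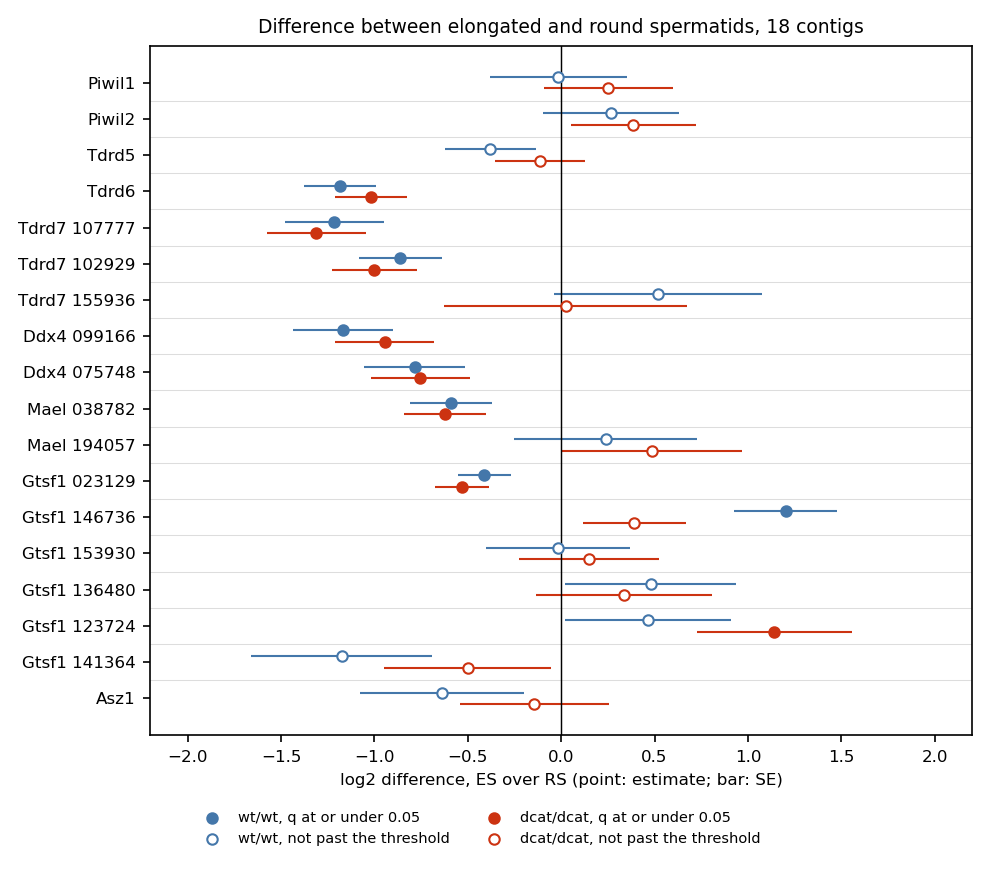
Log2 difference of ES over RS for the 18 tested contigs in wt/wt (blue) and dcat/dcat (red). Points are edgeR estimates, bars are standard errors, and filled points have q at or under 0.05. The contigs of Tdrd6, Ddx4 and the 2 long Tdrd7 contigs lie left of 0 in both genotypes, and Gtsf1 contigs lie on both sides.

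Piwil1 (MIWI), the PIWI protein that binds pachytene piRNAs in spermatocytes and round spermatids, had 19.1, 50.05 and 26.02 CPM in RS wt/wt and 35.9, 24.7 and 31.8 in ES wt/wt. In dcat/dcat it was at 29.9, 36.7 and 33.0 in RS and at 30.1, 39.9 and 47.3 in ES. The stages overlapped in both genotypes, and the differences of -0.01 ± 0.37 and 0.25 ± 0.35 did not pass. Piwil2 (MILI), the PIWI protein present from fetal germ cells to round spermatids, was at 18.3 to 21.9 in RS wt/wt, 19.0 to 28.2 in ES wt/wt, 20.3 to 32.8 in RS dcat/dcat and 18.5 to 49.0 in ES dcat/dcat. Its differences of 0.27 ± 0.36 and 0.39 ± 0.34 did not pass. Both genes had few reads, 301 for Piwil1 and 235 for Piwil2 over the 12 libraries, so that differences the size of their standard errors were not detectable at this depth.

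Tdrd5, a Tudor and LOTUS-domain protein that takes part in pachytene piRNA production, was at 132, 138 and 132 CPM in RS wt/wt on ENSMUST00000121146 and at 114, 93.2 and 102 in ES wt/wt. These groups did not overlap, but the difference of -0.38 ± 0.25 did not pass (q = 0.234 by edgeR). On total counts alone it was -1.10 and passed (q = 0.00138), as it did at -0.70 when contigs needed 10 reads in every library (q = 0.0134). In dcat/dcat the levels were 166, 123 and 159 in RS and 202, 109.9 and 105 in ES, with a difference of -0.11 ± 0.24 that did not pass, against -0.80 on total counts alone (q = 0.00850 by edgeR). Asz1, a protein that links the mitochondrial surface to the piRNA-processing granules, had 122 reads in all, and its differences of -0.64 ± 0.44 and -0.14 ± 0.40 did not pass. On total counts alone the difference in wt/wt was -1.35 and passed (q = 0.0171 by edgeR). Tdrd1, the Tudor protein that docks PIWI proteins on those granules, had 19, 12 and 36 summed reads in RS wt/wt and 11, 5 and 8 in ES wt/wt, with a difference of 0.24 ± 0.43. The dcat/dcat libraries had 20, 12 and 22 reads in RS and 8, 10 and 31 in ES. Its summed difference there was 1.01 ± 0.38 and passed (q = 0.0318 by edgeR), and without ES dcat/dcat library 3 it was 0.40 (q = 0.478). Leaving out RS dcat/dcat library 2 or 3 also ended the call, with differences of 0.93 (q = 0.0762) and 1.01 (q = 0.0607), as did scaling to total counts alone (0.19, q = 0.661).

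With contigs summed by gene, 3 of the 10 genes passed in wt/wt, all lower, against 49.0% of 6866 genes, of which 23.4% were lower. They were Tdrd6 (-1.04 ± 0.19), Ddx4 (-0.84 ± 0.17) and Tdrd7 (-0.81 ± 0.20). In dcat/dcat, 4 of 10 passed, the same 3 genes lower and Tdrd1 higher, against 49.0%, 23.0% lower and 26.0% higher. The calls of Tdrd6, Ddx4 and Tdrd7 held in both genotypes when any 1 of the 6 libraries compared was left out and with DESeq2's size factors. Total counts alone also kept them, but that setting moves a typical contig towards lower in ES and could hardly end a lower call. Total counts alone gave 7 called genes in wt/wt, with Mael, Gtsf1, Tdrd5 and Asz1 added, and 6 in dcat/dcat, with Mael, Gtsf1 and Tdrd5 added and Tdrd1 lost, all lower. The share of all genes called under that setting is not given here, so these 2 counts have no background. Piwil2 in dcat/dcat passed without ES dcat/dcat library 1 (0.87, q = 0.0280 by edgeR). At contig level the 8 calls in wt/wt became 5 when RS wt/wt library 2 or 3 or ES wt/wt library 1 or 2 was left out. The 8 calls in dcat/dcat became 5 without RS dcat/dcat library 1 and 4 without ES dcat/dcat library 3.

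How the reads of a gene were divided among its contigs was compared between stages for the 4 members with at least 2 tested contigs, by an exact two-sided permutation test of stage labels within genotype (400 arrangements). For Gtsf1, ENSMUST00000023129 held 80.4%, 74.9% and 73.4% of the reads in RS wt/wt and 68.5%, 59.0% and 61.0% in ES wt/wt. The dcat/dcat shares were 81.5%, 72.6% and 69.3% in RS and 65.4%, 54.3% and 60.4% in ES. All 6 ES libraries were below all 6 RS libraries, and the mean share differed by -13.9 percentage points. The exact p of 0.005 is the smallest these permutations can give, and after adjustment over 2577 genes with at least 2 tested contigs q was 0.0629. None of these genes passed q at or under 0.05, a share of 0.00%. The difference was -13.5 points in wt/wt and -14.4 points in dcat/dcat. For Mael the share of ENSMUST00000038782 differed by -10.2 points (exact p = 0.095), for Tdrd7 that of ENSMUST00000107777 by -8.16 points (exact p = 0.055) and for Ddx4 that of ENSMUST00000099166 by -3.81 points (exact p = 0.53), and none passed after adjustment.

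The shares also moved with the library number. For Mael, ENSMUST00000038782 held 90.3% to 94.5% of the reads in the 4 libraries numbered 1 and 65.3% to 85.5% in the other 8. For Ddx4, ENSMUST00000099166 held 57.1% to 71.1% in the libraries numbered 1 and 40.7% to 54.4% in the others. The library numbered 1 was above both others in all 4 groups for Ddx4, Gtsf1 and Mael, as for 756 of the 2577 genes (29.3%), and was below both others in all 4 groups for 102 genes (3.96%). The labels give no batch, and the part of the library number in these shares was not tested. With all libraries numbered 1 left out, the Gtsf1 share differed by -13.9 points, as large as with them, and the Mael share by -13.3 points. Each had q = 0.230 in the permutation test, which decides nothing. With those libraries left out, that test had too few arrangements for any gene to pass. The member calls were then 7 in wt/wt, without ENSMUST00000023129 of Gtsf1, and 9 in dcat/dcat, with ENSMUST00000194057 of Mael added at 0.51 (q = 0.0415 by edgeR).

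**Figure D3:**
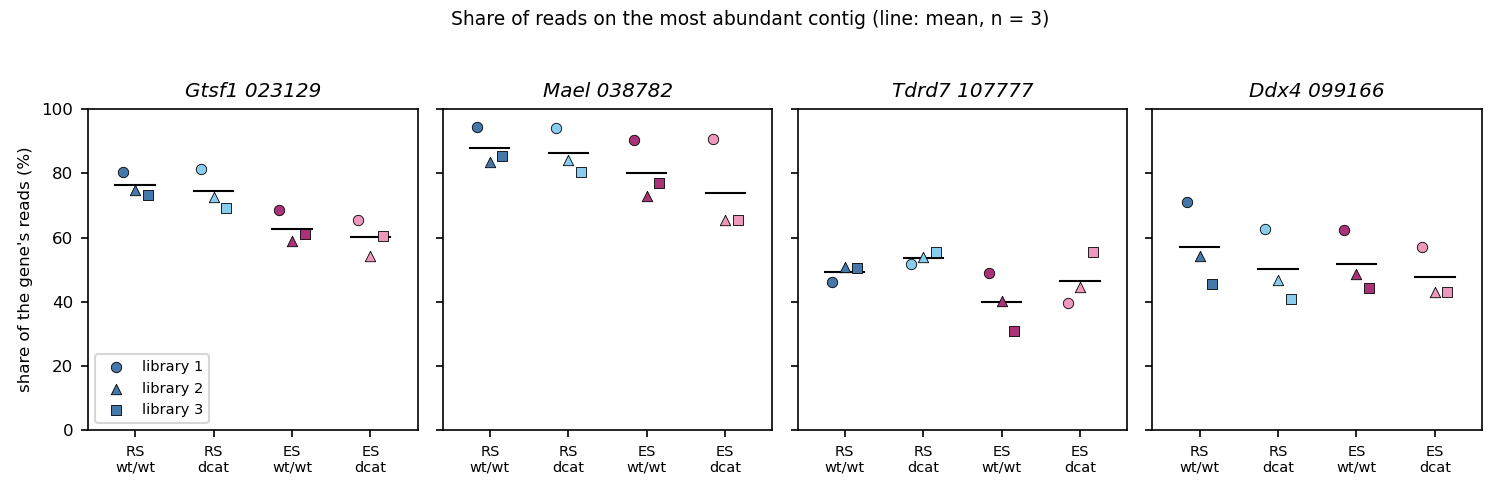
Share of a gene's reads (%) on its most abundant contig in the 12 libraries, for Gtsf1, Mael, Tdrd7 and Ddx4. Points are libraries (circle, triangle and square for numbers 1, 2 and 3) and lines are means of 3. The Gtsf1 share is lower in every ES library than in every RS library, and the circles are the highest points of each group for Gtsf1, Mael and Ddx4.

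Between the genotypes, no member contig passed the test in either cell type. In RS, 0 of 18 contigs passed for dcat/dcat against wt/wt and 0.00% of all contigs did, and at an unadjusted p under 0.05 there were 0 of 18, against 0.828% of all contigs. In ES the counts were also 0 of 18 against 0.00%, and 0 of 18 against 3.01% at the unadjusted p. DESeq2 also gave 0 members in both. The members' log2 differences lay between -0.38 and 0.42 in RS, and between -0.88 and 0.78 in ES. The lowest in each belonged to the Tdrd7 contig ENSMUST00000155936, and the highest to Gtsf1 contigs. The differences for ENSMUST00000023129 of Gtsf1 were -0.02 ± 0.14 in RS and -0.14 ± 0.15 in ES, and those for ENSMUST00000038782 of Mael were -0.04 ± 0.22 and -0.07 ± 0.22. For Tdrd6 they were 0.13 ± 0.18 and 0.29 ± 0.20, for Piwil1 0.10 ± 0.33 and 0.37 ± 0.38, and for Piwil2 0.40 ± 0.32 and 0.52 ± 0.37.

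In RS, Tdrd6 was the single contig of 18 whose genotypes did not overlap, with dcat/dcat higher, beside 5.31% of all contigs, 2.55% higher and 2.76% lower. In ES it was the Gtsf1 contig ENSMUST00000146736, with dcat/dcat lower by 0.39 ± 0.28, beside 7.66% of all contigs, 3.65% lower and 4.01% higher. With contigs summed by gene no member passed between genotypes, against 0.00% of genes in RS and 0.0146% in ES, where 1 gene passed, higher in dcat/dcat. For the leading contig of Ddx4 the differences were -0.15 ± 0.25 in RS and 0.07 ± 0.28 in ES, for Tdrd5 0.16 ± 0.23 and 0.42 ± 0.25, for that of Tdrd7 0.05 ± 0.24 and -0.05 ± 0.29, and for Asz1 0.10 ± 0.35 and 0.60 ± 0.48. The stage by genotype interaction passed for 0 of 18 contigs and for 0.00% of all contigs, and at an unadjusted p under 0.05 for 0 of 18 against 1.44%.

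**Figure D4:**
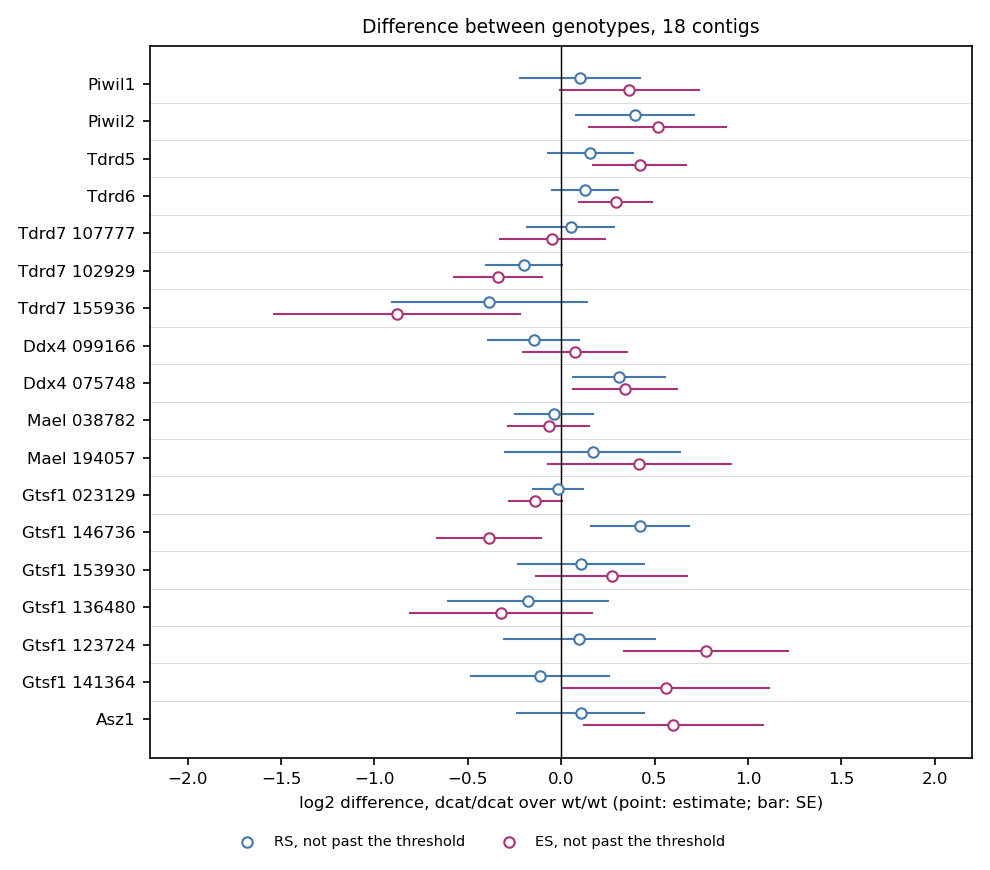
Log2 difference of dcat/dcat over wt/wt for the 18 tested contigs in RS (blue) and ES (purple). Points are edgeR estimates and bars standard errors, and all points are open because none passed. Estimates lie between -0.38 and 0.42 in RS, and between -0.88 and 0.78 in ES.

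Other genes of the pathway were counted from 4 lists of 35 genes, of which 22 had a tested contig, 28 contigs in all. Between stages 2 contigs were higher and 3 lower in ES in wt/wt, and 2 higher and 2 lower in dcat/dcat, with medians of -0.48 and -0.13. None passed between genotypes. Of the 3 transcription factors of piRNA loci, Mybl1 (-0.93 ± 0.54 in wt/wt) and Tcfl5 (-0.18 ± 0.17) did not pass and Btbd18 was not analysed here. Of the 5 nuclear silencing genes, which act mainly in fetal germ cells, Tex15 alone was counted (-0.63 ± 0.38 in wt/wt, not past the threshold).

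Of 9 contigs of piRNA biogenesis genes, 1 was higher and 2 were lower in wt/wt, and 1 higher and 1 lower in dcat/dcat. Beside this list and the next, 40.3% of all contigs tested passed in wt/wt and 41.0% in dcat/dcat. Tdrkh, which encodes a mitochondrial Tudor protein that recruits PIWI proteins for trimming, rose on ENSMUST00000166032 from 8.62 ± 4.91 to 76.7 ± 33.6 CPM (SD, n = 3) in wt/wt, a log2 difference of 3.07 ± 0.59 (q = 0.000797 by edgeR), and by 3.91 in dcat/dcat. Gtsf2, a paralog of Gtsf1, fell from 334 ± 29.9 to 162 ± 13.7 in wt/wt, by 1.04 on the log2 scale (q = 0.000286 by edgeR), and by 1.05 in dcat/dcat. Tdrd12 was at -1.20 in wt/wt (q = 0.0355 by edgeR) and at -0.89 in dcat/dcat, where it did not pass. Of 16 contigs of other chromatoid body genes, 1 was higher and 1 lower in each genotype. Ddx25, an RNA helicase needed in round spermatids, fell from 668 ± 33.8 to 331 ± 22.5 in wt/wt, by 1.01 on the log2 scale (q = 5.25e-05 by edgeR), and was at -0.99 in dcat/dcat. Kif17, a kinesin found in the chromatoid body, rose by 1.37 in wt/wt (q = 0.00192 by edgeR) and by 1.54 in dcat/dcat. Khdrbs1 was at -0.73 in wt/wt and did not pass.

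The profiles of the members over libraries were compared by the root mean square log2 difference of their summed levels over the 12 libraries, each gene centred on its own mean. Searched among the members only, Tdrd6 and Ddx4 were nearest to each other (0.16), and Ddx4 was also the nearest member to Tdrd7 (0.26). Mael and Gtsf1 were each other's nearest member (0.20), as were Piwil1 and Piwil2 (0.37). Genes outside the members were ranked for Piwil1 alone, and those named next were nearer to it than Piwil2 was. Of 6865 other genes, those nearest to Piwil1 outside the members were Cry1 (0.23), Ndufb9 (0.24), Ddit3 (0.26), Gm36128 (0.26) and 1700031L13Rik (0.27).

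RefSeq promoter windows (GRCm38.p6, from 250 bases before to 50 bases after an annotated start) were matched for 8 of the 10 genes, all but Piwil2 and Tdrd6, and were searched on both strands for AACGG, the core of MYB motifs, since MYBL1 is the known activator of pachytene piRNA loci and of several pathway genes. A match was present for 4 of the 8 genes, beside 19.6% of 27025 genes with a window, and in 4 of the members' 12 windows, beside 17.4% of all 32851 windows. The matches are printed with the motif, or its reverse complement, in capitals.
Ddx4, chr13:112652314-112652342, minus strand: ccgcacgtgcagCCGTTtaagccgcgtcg
Piwil1, chr5:128736095-128736123, plus strand: gtgtccacctcgCCGTTaacccagaggtc
Tdrd5, chr1:156303341-156303369, minus strand: cctgcggcgcgcAACGGcagcgcgggtgc
Tdrd7, chr4:45972814-45972842, plus strand: acctacacgtagCCGTTcctgtcaaccgt
The Tdrd7 match lies in a further window that begins at neither of the first exons above. The Tdrd5 window, chr1:156303299-156303598, holds the start of the untested contig ENSMUST00000167528 (156303348). It does not hold that of ENSMUST00000121146 (156303664). The Ddx4 match lies inside the first exon of ENSMUST00000099166, chr13:112652276-112652475. A match describes the letters of the window and not a bound site. Of these 4 genes, Ddx4 and Tdrd7 fell between stages and Piwil1 and Tdrd5 did not pass.

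Marker lists for the sorted cells and their neighbours were summed in the same libraries. Of 11 contigs of elongated spermatid markers such as Prm1 and Tnp2, 10 were higher in ES in both genotypes, with 19136 to 41377 CPM in RS wt/wt and 209060 to 278447 in ES wt/wt. The 7 round spermatid markers summed to 1186 to 1533 in RS wt/wt and 2076 to 2652 in ES wt/wt, with 2 of 9 contigs higher and 2 lower. Markers of meiotic spermatocytes, cells that also express piRNA pathway genes, were at 1079 to 1152 in RS wt/wt and 1086 to 1168 in ES wt/wt for the 10 of 16 genes counted, among them Sycp1 and Sycp3, with 5 of 20 contigs higher and 5 lower in wt/wt. Of the spermatogonium markers, 1 of 7 was counted (Uchl1, 3.32 to 8.34 in RS wt/wt and 17.7 to 38.0 in ES wt/wt). Markers of somatic cells of the testis were higher in ES. The 5 of 9 Leydig cell markers counted summed to 14.1 to 44.4 in RS wt/wt and 395 to 766 in ES wt/wt, and all 6 contigs rose in both genotypes. The 4 of 11 Sertoli cell markers counted summed to 16.7 to 24.9 in RS wt/wt and 169.5 to 299 in ES wt/wt, and all 5 contigs rose in both genotypes. The Leydig markers Star and Lhcgr and the Sertoli markers Sox9 and Amh were not analysed here. The part of these cells in the stage differences of the members was not tested.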

How the data were processed

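RNA of sorted spermatids was sequenced by Oxford Nanopore direct RNA sequencing (12 libraries, 4 groups of 3, each a pool of 3 mice). The authors base-called, demultiplexed and aligned reads to GENCODE transcripts of GRCm38 with minimap2 (2.20-r1061 in the submitters' processing notes) and deposited raw counts per contig, without normalization. Their DESeq2 tables also hold fold changes, adjusted p-values and calls, which were not used; only the symbols were. Names matched 11225 of 12114 contigs. Coordinates and exons come from GENCODE vM21 on the same build.

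The 11831 contigs that reached 10 reads in 2 or more libraries of any group were kept. Counts were scaled by TMM and fitted with edgeR 4.0.16 (R 4.3.3) quasi-likelihood over all 12 libraries, one mean per group, with Benjamini-Hochberg adjustment over all contigs and a threshold of 0.05. DESeq2 1.42.0 was an alternative. The code was tested on simulated data. Near-identical contigs of a gene can exchange reads, so contig values are less certain than gene sums.

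The members and lists were chosen with earlier results of these data known. By rule, every member gene was named, with its most abundant contig in full and others by range unless called in the opposite direction; the exons and first exons that separate contigs, and other contigs' single values, were added after their values were seen. Up to 3 genes per pathway list with the smallest p in wt/wt were named. Same-numbered libraries deviated together (r over contigs 0.70, 0.38 and 0.47 between genotypes in RS, 0.52, 0.25 and 0.29 between stages in dcat/dcat). Unlike-numbered libraries 2 and 3 did so too, less strongly (0.27 and 0.23 in RS, 0.19 and 0.19 in dcat/dcat). Same-numbered libraries did not all deviate together between genotypes in ES (lowest r 0.03) or between stages in wt/wt (-0.09). The main fit was therefore unpaired in every comparison, and the number entered only as a block in alternative fits. Per the methods both stages came from the same mice and each sorting session held a mouse of either genotype, but the sources used here do not tie library numbers to mice or sessions.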

Additional observations from a re-analysis of the deposited data

How the results depend on the processing

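The 8 calls in each stage comparison stayed within 1.5 times under every planned or added setting but 2 kinds. Contigs summed by gene gave 3 called genes in wt/wt and 4 in dcat/dcat, since contigs were merged. Leaving out 1 library gave 5 to 7 calls in wt/wt and 4 to 7 in dcat/dcat. No setting run on contigs gave a call between genotypes or for the interaction. Low read numbers limit Piwil1, Piwil2, Tdrd1 and Asz1. Leaving out the libraries numbered 1, and the other settings for gene sums, were chosen after seeing the data. The differences below changed sign, and the cause was not tested.

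With DESeq2's size factors in edgeR, the log2 difference for ES against RS in wt/wt was 0.0220 for Piwil1 and 0.0282 for Gtsf1 ENSMUST00000153930. With DESeq2, the log2 difference for ES against RS in wt/wt was 0.0204 for Piwil1 and 0.0259 for Gtsf1 ENSMUST00000153930. With contigs summed by gene, some gene sums had the opposite sign to the gene's leading contig, and the values here are those of the sums. For ES against RS the sums were 0.14 for Piwil1 and 0.00906 for Gtsf1 in wt/wt, and 0.0272 for Tdrd5 and 0.0169 for Asz1 in dcat/dcat. For dcat/dcat against wt/wt they were -0.0692 for Tdrd7, 0.0722 for Ddx4 and 0.0220 for Gtsf1 in RS, and 0.0483 for Mael in ES. The interaction of the Mael sum was 0.0559. With the 6 libraries compared alone, the log2 difference for ES against RS in wt/wt was 0.0249 for Piwil1 and 0.0249 for Gtsf1 ENSMUST00000153930. With total counts alone, the log2 difference for ES against RS in wt/wt was -0.45 for Piwil2, -0.19 for Tdrd7 ENSMUST00000155936, -0.46 for Mael ENSMUST00000194057, -0.23 for Gtsf1 ENSMUST00000136480 and -0.24 for Gtsf1 ENSMUST00000123724. There, that for ES against RS in dcat/dcat was -0.41 for Piwil1, -0.27 for Piwil2, -0.63 for Tdrd7 ENSMUST00000155936, -0.17 for Mael ENSMUST00000194057, -0.28 for Gtsf1 ENSMUST00000146736, -0.52 for Gtsf1 ENSMUST00000153930 and -0.32 for Gtsf1 ENSMUST00000136480. There, that for dcat/dcat against wt/wt in ES was 0.0106 for Tdrd7 ENSMUST00000107777. There, that for the interaction was 0.00119 for Mael ENSMUST00000038782. With a filter of 10 reads in every library, the log2 difference for ES against RS in wt/wt was -0.0722 for Mael ENSMUST00000194057. There, that for dcat/dcat against wt/wt in ES was 0.00352 for Tdrd7 ENSMUST00000107777. There, that for the interaction was 0.00732 for Mael ENSMUST00000038782. With no filter, the log2 difference for ES against RS in wt/wt was 0.000489 for Gtsf1 ENSMUST00000153930. With the libraries numbered 1 left out, the log2 difference for ES against RS in dcat/dcat was -0.27 for Tdrd7 ENSMUST00000155936 and -0.15 for Gtsf1 ENSMUST00000153930. There, that for dcat/dcat against wt/wt in RS was -0.0455 for Piwil1. There, that for dcat/dcat against wt/wt in ES was 0.34 for Tdrd7 ENSMUST00000107777. There, that for the interaction was 0.27 for Tdrd7 ENSMUST00000107777.

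With the replicate number as a block, 9 member contigs passed in wt/wt and 9 in dcat/dcat, and with the block within each stage 7 and 8 did. The block added Gtsf1 ENSMUST00000141364 in wt/wt and Mael ENSMUST00000194057 in dcat/dcat. Within each stage it lost Gtsf1 ENSMUST00000023129 in wt/wt (q = 0.0683) and exchanged Gtsf1 ENSMUST00000123724 for ENSMUST00000146736 in dcat/dcat. The block changed no call between genotypes. With the replicate number as a block, the log2 difference for ES against RS in wt/wt was 0.0228 for Piwil1 and 0.0352 for Gtsf1 ENSMUST00000153930. With that block within each stage, the log2 difference for ES against RS in wt/wt was 0.38 for Piwil1, -0.0743 for Piwil2, 0.53 for Gtsf1 ENSMUST00000153930, -0.0526 for Gtsf1 ENSMUST00000136480 and -0.0317 for Gtsf1 ENSMUST00000123724. There, that for ES against RS in dcat/dcat was -0.0136 for Piwil2, 0.19 for Tdrd5 and -0.19 for Gtsf1 ENSMUST00000136480.

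With 1 library left out, these differences lay on both sides of 0. For ES against RS in wt/wt, they ran from -0.28 to 0.42 for Piwil1, from -0.0810 to 1.08 for Tdrd7 ENSMUST00000155936, from -0.10 to 0.63 for Mael ENSMUST00000194057 and from -0.36 to 0.33 for Gtsf1 ENSMUST00000153930. For ES against RS in dcat/dcat, they ran from -0.47 to 0.0941 for Tdrd5, from -0.31 to 0.47 for Tdrd7 ENSMUST00000155936, from -0.0124 to 0.31 for Gtsf1 ENSMUST00000153930, from -0.0302 to 0.77 for Gtsf1 ENSMUST00000136480 and from -0.37 to 0.0313 for Asz1. For dcat/dcat against wt/wt in RS they ran from -0.16 to 0.54 for Piwil1, from -0.0849 to 0.18 for Tdrd7 ENSMUST00000107777, from -0.16 to 0.0534 for Mael ENSMUST00000038782, from -0.38 to 0.19 for Ddx4 ENSMUST00000099166, from -0.0437 to 0.0188 for Gtsf1 ENSMUST00000023129, from -0.10 to 0.31 for Gtsf1 ENSMUST00000123724 and from -0.11 to 0.33 for Asz1. For dcat/dcat against wt/wt in ES they ran from -0.25 to 0.17 for Tdrd7 ENSMUST00000107777, from -0.36 to 0.12 for Mael ENSMUST00000038782 and from -0.0266 to 0.12 for Ddx4 ENSMUST00000099166. For the interaction they ran from -0.17 to 0.52 for Piwil1, from -0.27 to 0.41 for Piwil2, from -0.10 to 0.44 for Tdrd5, from -0.0175 to 0.33 for Tdrd6, from -0.29 to 0.12 for Tdrd7 ENSMUST00000107777, from -0.32 to 0.16 for Mael ENSMUST00000038782 and from -0.12 to 0.46 for Ddx4 ENSMUST00000099166.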
